A study of Mus musculus with 14 samples.

Results

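The genes described here are 10 chemokines that myeloid cells are known to make: Ccl6, Ccl9, Ccl24, Ccl12, Ccl8, Ccl3, Ccl4, Cxcl1, Cxcl2 and Cxcl16. They were taken by name from a table of raw counts of 21138 genes, and all 10 had a row. The study asked whether cells that carry both tumor and white blood cell features in mice with melanoma are hybrids of the 2 cell types. Single cells were read by Smart-seq2, a full-length RNA method without molecular tags, in 648 cells of 14 samples.

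In 9 samples (539 cells) the mice were C57BL/6J females of 6 to 8 weeks that had received B16F10 melanoma cells, a pigmented mouse line of the same strain, carrying a fluorescent label and no drug. Flow sorting on tumor and host markers gave the classes that the labels call CTC (circulating tumor cell), DP and WBC (white blood cell), from blood and lung. The labels of these samples are C1L, C1N, C1R, C2N, C2R, C3R, P1, P2 and P4, numbered here as replicates 1 to 9 in that order. The remaining 5 samples (109 cells) are controls with 1 sample each: B16F10 cells (22), and WBC (21), CDP (18), Duplike (24) and PltLike (24) cells from naive mice of that strain, sex and age. The labels do not expand DP, CDP, Duplike or PltLike. They do not say whether the samples are separate animals either, so p-values measure the spread between samples, which may be technical.

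Chemokines are small secreted proteins that draw leukocytes along a gradient by binding G protein-coupled receptors. The CC family acts mainly on monocytes, macrophages, lymphocytes and eosinophils, whereas the CXC members with an ELR motif, Cxcl1 and Cxcl2, bind Cxcr2 and recruit neutrophils. Macrophages of lung and body cavities make several of them at rest, and microbial or cytokine signals that act through NF-kB raise others within hours.

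Most members lie beside a close relative in the genome (GRCm38, GENCODE vM21 annotation, all protein-coding). On chromosome 11, Ccl9 (chr11:83572919-83578636) and Ccl6 (chr11:83587882-83593087) are 9246 bases apart on the minus strand, and Ccl3 (chr11:83647844-83649355, minus) and Ccl4 (chr11:83662584-83664683, plus) are 13229 bases apart. Ccl12 (chr11:82101845-82103400) and Ccl8 (chr11:82115185-82116799) are 11785 bases apart on the plus strand, and Cxcl16 lies elsewhere on that chromosome (chr11:70453983-70459984, minus). On chromosome 5, Cxcl1 (chr5:90891241-90893115) and Cxcl2 (chr5:90903871-90905938) are 10756 bases apart on the plus strand, far from Ccl24 (chr5:135569937-135573049, minus). Ccl6 overlaps E230016K23Rik on the other strand over 5206 bases and Cxcl16 overlaps Zmynd15 over 552 bases. The strand setting of the counting is not given in the sources used here, so reads of these overlaps cannot be told apart.

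RefSeq promoter windows of 300 bases around the start site (GRCm38.p6) were matched for 7 of the 10 members, Ccl6, Ccl9, Ccl12, Ccl8, Ccl3, Cxcl1 and Cxcl2. The neighbours Cxcl1 and Cxcl2 are shown because both passed the test between lung and blood DP cells. The neighbours Ccl9 and Ccl6 are shown because they were high in both tissues. Ccl6 also passed the edgeR test between lung and blood DP cells (adjusted p = 0.0494), and Ccl9 did not (0.101). Capitals mark matches to an NF-kB motif, which is GGG, any pair of bases and then TTTCC, or its reverse on the other strand, GGAAA, any pair of bases and then CCC.
Cxcl1, chr5:90890995-90891294, plus strand: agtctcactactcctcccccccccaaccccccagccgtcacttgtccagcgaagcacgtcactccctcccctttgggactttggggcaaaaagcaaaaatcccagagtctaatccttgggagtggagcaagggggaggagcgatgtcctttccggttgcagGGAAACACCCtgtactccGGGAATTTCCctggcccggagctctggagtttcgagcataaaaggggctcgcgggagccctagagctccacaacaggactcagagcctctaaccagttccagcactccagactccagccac
Cxcl2, chr5:90903649-90903948, plus strand: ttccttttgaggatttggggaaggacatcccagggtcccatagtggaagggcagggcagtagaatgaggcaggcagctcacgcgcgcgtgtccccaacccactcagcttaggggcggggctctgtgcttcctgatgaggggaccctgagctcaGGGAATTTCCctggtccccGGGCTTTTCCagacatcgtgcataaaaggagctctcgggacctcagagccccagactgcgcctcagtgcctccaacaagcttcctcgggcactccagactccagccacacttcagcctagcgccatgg
Ccl9, chr11:83578587-83578886, minus strand: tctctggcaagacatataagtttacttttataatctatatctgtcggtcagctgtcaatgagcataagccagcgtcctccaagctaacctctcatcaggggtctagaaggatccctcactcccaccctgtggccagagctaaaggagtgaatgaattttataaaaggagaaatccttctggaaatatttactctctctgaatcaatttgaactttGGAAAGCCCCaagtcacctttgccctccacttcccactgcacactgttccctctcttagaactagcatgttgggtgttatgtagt
Ccl6, chr11:83593038-83593337, minus strand: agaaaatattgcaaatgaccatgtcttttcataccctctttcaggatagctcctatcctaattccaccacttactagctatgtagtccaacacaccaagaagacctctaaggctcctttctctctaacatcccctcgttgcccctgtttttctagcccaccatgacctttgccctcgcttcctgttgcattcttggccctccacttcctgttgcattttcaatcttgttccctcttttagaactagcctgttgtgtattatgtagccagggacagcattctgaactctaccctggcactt
The motif was found in 3 of the 7 matched windows, in Cxcl1 (GGAAACACCC from -89 to -80 and GGGAATTTCC from -71 to -62, counted from the start site), Cxcl2 (GGGAATTTCC from -97 to -88 and GGGCTTTTCC from -78 to -69) and Ccl9 (GGAAAGCCCC from -35 to -26). It was present in 1.629% of the 32851 RefSeq windows of this length. The letters TATAAA, searched on both strands as TTTATA, were in the windows of Ccl9, Ccl12 and Ccl8 and in 13.62% of all windows. CATAAA, searched as TTTATG on the other strand, was in the windows of Cxcl1 and Cxcl2 and in 11.85% of all windows. In the Ccl9 window a match to TATAAA (from -92 to -87) overlapped one to TTTATA (from -94 to -89). Other motifs were also tried on these windows, so the shares are a description.

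Depth and cell makeup set what the levels can show. Each tumor-bearing sample held 17 to 93 cells and 208 to 1728 Mcounts (1 Mcount is 1000000 counts), each control 18 to 24 cells and 26.6 to 471 Mcounts, and the lowest total of a cell was 20525. Levels are counts per Mcount of all counts (CPM), in single cells or in the counts summed over the cells of 1 sample, tissue and class. DP cells were divided by the summed level of 6 pigment-cell genes (Pmel, Tyrp1, Dct, Mlana, Tyr and Slc45a2), with no use of a member, into tumor-high cells at 1000 CPM or more and tumor-low cells. The tumor-high share was 75.5% of 273 DP cells of blood and 50.8% of 177 of lung, and it ranged from 23.9% to 100% over 7 blood samples and from 6.67% to 91.4% over 7 lung samples. The 6 blood samples with tumor-low DP cells held 2 to 35 of them each, and the 7 lung samples 3 to 31. In blood, replicate 3 had 21 tumor-high among 23 DP cells and replicate 7 had 11 among 46. In lung, replicate 8 had 32 among 35 and replicate 3 had 3 among 34. Shares of pooled cells therefore weigh the samples unequally. Just below the divide (300 to 1000 CPM) lay 32 DP cells and just above it (1000 to 3000 CPM) lay 24. Pan-leukocyte markers (at least 50% of Ptprc, Laptm5, Cd53, Cd52, Coro1a, Tyrobp and Fcer1g at 10 CPM or more) were present in 65 of 67 tumor-low DP cells of blood, 80 of 87 of lung, 28 of 28 blood WBC and 14 of 18 lung WBC. They were present in 0 of 43 CTC cells, here 28 of blood and 15 of lung. Melanocyte markers were also present in 10 of 28 blood WBC, 8 of 18 lung WBC and 4 of 21 naive WBC, and in 17 of 67 and 18 of 87 tumor-low DP cells of blood and lung. The naive CDP, Duplike and PltLike cells all held them, beside pan-leukocyte markers in 17 of 18, 11 of 24 and 0 of 24 cells. Their median pigment-gene levels were 32340, 28500 and 26510 CPM, beside 32550 CPM in the B16F10 cells.

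Of the counts of all 10 members in DP cells, tumor-low cells held 96.2% in blood and 91.3% in lung, a sum that Ccl6, Ccl9, Ccl3, Ccl4, Cxcl1 and Cxcl2 make up for the most part. Tumor-high cells held a larger share of the counts of some scarcer members. It was 74.5% of Ccl8 in blood and 48.0% in lung, and 33.3% and 34.6% of Ccl12. For Cxcl16 it was 35.6% and 10.8%, and for Ccl24 1.48% and 41.1%. Few cells carried the shares of Ccl8, Ccl12 and Ccl24. In blood, 2 of 28 tumor-high cells with pan-leukocyte markers reached 10 CPM of Ccl8 (highest 7672 CPM). For Ccl12 5 of these 28 did (highest 5158 CPM), against 0 of 178 without the markers for either gene. In lung, 3 of 20 with the markers reached 10 CPM of Ccl24 (highest 1892 CPM), against 0 of 70 without. At least 1 member reached 10 CPM in 66 of 67 tumor-low DP cells of blood (98.5%) and 86 of 87 of lung (98.9%). Among tumor-high DP cells it did so in 32 of 206 of blood (15.5%) and 31 of 90 of lung (34.4%). The summed level of the 10 members had a median of 9169 CPM in tumor-low DP cells of blood and 10200 CPM in those of lung, against 0.864 and 2.60 CPM in tumor-high cells. Both sums share a cell's total. The pigment-gene sum was at most 73610 CPM in DP cells of blood and 100700 CPM in those of lung, and its part in the difference was not tested.

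**Figure D1:**
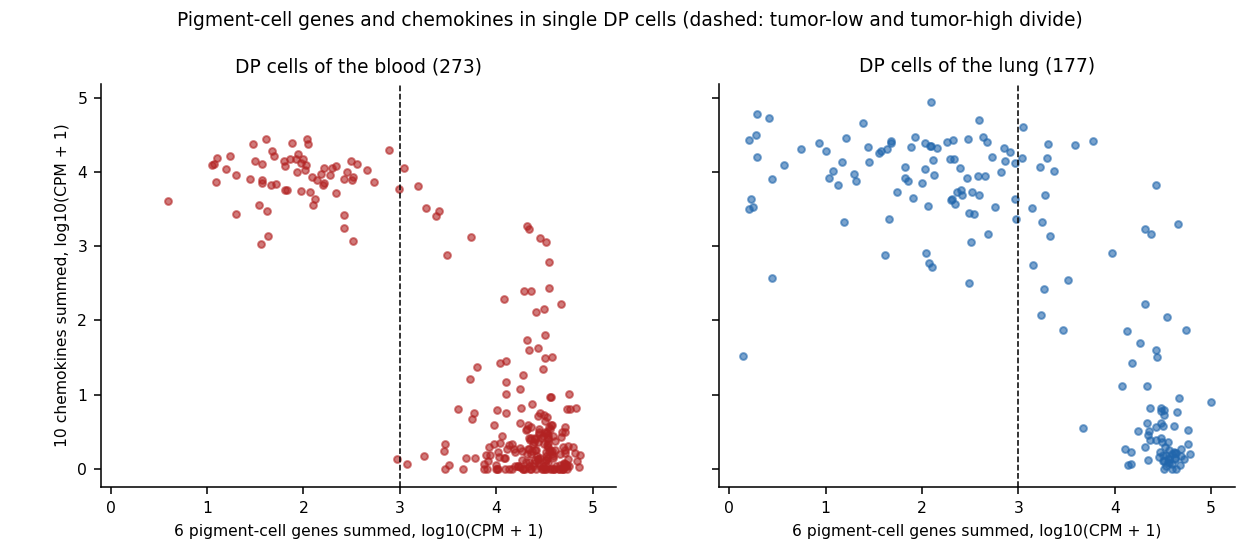
Each point is 1 DP cell, with the summed CPM of the 6 pigment-cell genes on the x axis and of the 10 chemokines on the y axis, both as log10(CPM + 1), for 273 cells of blood (left) and 177 of lung (right). Tumor-low cells, left of the dashed line at 1000 CPM, lie high, and most tumor-high cells lie near 0, with some in between.

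The tumor-high cells with Ccl6 or Ccl9 were mostly those with leukocyte markers, and in lung so were those with Cxcl1 or Cxcl2. Pan-leukocyte markers were present in 28 of 206 tumor-high DP cells of blood and 20 of 90 of lung. Ccl6 reached 10 CPM in 19 of these 28 and 19 of these 20 cells, against 3 of 178 and 4 of 70 tumor-high cells without the markers. Ccl9 did so in 14 of 28 and 15 of 20, against 7 of 178 and 5 of 70. Cxcl2 reached it in 3 of 28 and 14 of 20, against 3 of 178 and 1 of 70, and Cxcl1 in 0 of 28 and 11 of 20, against 1 of 178 and 5 of 70. The double-marker cells of lung had a median pigment-gene level of 2236 CPM and the rest of the tumor-high lung cells 31860 CPM, while in blood the medians were 21350 and 26820 CPM. No doublet caller was run on these cells.

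Ccl6 and Ccl9, CC chemokines that attract myeloid cells through Ccr1, were the most widely detected members, and their levels in tumor-low DP cells overlapped those of WBC in both tissues. Ccl6 ran from 1495 through a median of 4458 to 8062 CPM in 6 blood tumor-low DP samples (4363 ± 2240, SD) and from 939 through 2833 to 7948 CPM in 7 lung ones (3578 ± 2377). WBC held 1157 to 9541 CPM (median 2154, n = 6) in blood and 1626, 3203 and 3631 CPM in lung. The groups overlapped throughout, and the level was of this order in every sample. Ccl9 ran from 757 through 1366 to 2641 CPM in blood tumor-low DP sums and from 373 through 1360 to 2549 CPM in lung ones. In blood WBC it ran from 178 through 1348 to 2790 CPM, and lung WBC held 457, 859 and 1676 CPM. The naive WBC sample stood at 1214 CPM of Ccl6 and 397 CPM of Ccl9. Of the tumor-low DP cells, 97.0% of blood (exact 95% interval 89.6 to 99.6) and 89.7% of lung (81.3 to 95.2) had Ccl6 at 10 CPM or more, and 95.5% and 81.6% had Ccl9. These intervals cover counting error only, since cells of 1 sample share their source. CTC of blood, which should lack these genes, had Ccl6 in 0 of 28 and Ccl9 in 1 of 28 cells.

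Ccl3, a ligand of Ccr1, and Ccl4, both released by activated macrophages, had higher means in lung than in blood. Ccl3 ran from 24.5 through 130 to 816 CPM in blood tumor-low DP samples and from 0.235 through 614 to 3395 CPM in lung ones. Ccl4 ran from 0.0418 through 92.4 to 1149 CPM in blood and from 0.956 through 1585 to 4776 CPM in lung. Replicate 1 was the lowest of the lung samples for both genes, below every blood sample for Ccl3, and replicate 3 was the highest of blood for both. WBC of blood reached at most 119 CPM of Ccl3 and 80.3 CPM of Ccl4, and lung WBC held 398, 121 and 17.6 CPM of Ccl3 and 580, 1729 and 199 CPM of Ccl4. In lung tumor-low DP cells the pair was usually detected together: 57 of 87 cells held Ccl3, 51 held Ccl4 and 44 held both. In blood 27 of 67 held Ccl3, 15 held Ccl4 and 11 held both.

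Cxcl1 and Cxcl2, the neutrophil attractants, had higher medians in lung than in blood. Cxcl1 in tumor-low DP sums of blood was 23.8, 0, 0, 0.0258, 0.0243 and 503 CPM in replicates 1, 2, 3, 6, 7 and 9. In lung it was 577, 3430, 4613, 663, 579, 919 and 76.7 CPM in replicates 1, 2, 3, 4, 5, 7 and 8. The groups overlapped only through blood replicate 9, which lay above lung replicate 8. In blood 4 of 67 tumor-low DP cells (5.97%, interval 1.65 to 14.6) held Cxcl1 and in lung 46 of 87 (52.9%, 41.9 to 63.7). These shares pool cells of samples that gave unequal numbers. Of the 4 blood cells, 3 came from replicate 9: 1 at 10850 CPM and 1 at 132 CPM with macrophage and serous-cavity macrophage markers, and 1 at 1231 CPM with fibroblast markers and no macrophage markers. The other was a macrophage-marker cell of replicate 1 at 55.6 CPM. Cxcl2 was less restricted: blood tumor-low DP sums ran from 0 through 222 to 279 CPM and lung ones from 80.6 through 1489 to 4268 CPM. Of the lung tumor-low DP cells 77.0% held Cxcl2, and 42 of the 46 lung cells with Cxcl1 also held Cxcl2. WBC overlapped these levels, with 43.5 to 2427 CPM of Cxcl2 in blood (median 437) and 3797, 3157 and 1628 CPM in lung. Cxcl1 of WBC ran from 0 through 23.0 to 3091 CPM in blood, where replicate 1 was far above the rest, and was 1628, 6.21 and 34.3 CPM in lung.

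Cxcl16, a membrane-anchored ligand of Cxcr6 that Adam10 and Adam17 shed, was present at a lower level. It ran from 33.1 through 45.3 to 159 CPM in blood tumor-low DP sums and from 122 through 410 to 730 CPM in lung ones, and only blood replicate 3 lay within the lung range. It was detected in 16 of 67 blood cells and 63 of 87 lung cells. WBC held 0 to 272 CPM in blood (median 40.6) and 324, 151 and 440 CPM in lung.

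Ccl24, an eotaxin that binds Ccr3 on eosinophils, averaged 188 ± 117 CPM in blood and 32.5 ± 54.5 CPM in lung. Blood tumor-low DP sums held 144, 154, 0, 210, 311 and 306 CPM in replicates 1, 2, 3, 6, 7 and 9. Lung ones held 0.0940, 35.7, 0.268, 3.37, 30.1, 6.49 and 152 CPM in replicates 1, 2, 3, 4, 5, 7 and 8. Lung replicate 8 and blood replicate 3 made the groups overlap. It was detected in 33 of 67 blood cells (49.3%) and 10 of 87 lung cells (11.5%). Blood WBC ran from 52.3 through 434 to 860 CPM, and lung WBC held 59.8, 676 and 172 CPM.

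Ccl12 and Ccl8, relatives of Ccl2 that act mainly on Ccr2 and, for mouse Ccl8, Ccr8, were found in few cells. Ccl12 was in 6 of 67 blood and 19 of 87 lung tumor-low DP cells and Ccl8 in 5 and 13. In blood Ccl12 ran from 0 through 47.2 to 532 CPM, with replicate 3 far above the rest, and Ccl8 from 0 through 3.53 to 17.6 CPM. In lung Ccl12 ran from 0.266 through 34.7 to 146 CPM and Ccl8 from 0.0784 through 32.3 to 124 CPM. Lung WBC held 0.179, 547 and 0.126 CPM of Ccl12 and at most 0.189 CPM of Ccl8. Both stood at 0 in the naive WBC sample and in 5 and 4 of the 6 blood WBC sums, respectively.

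**Figure D2:**
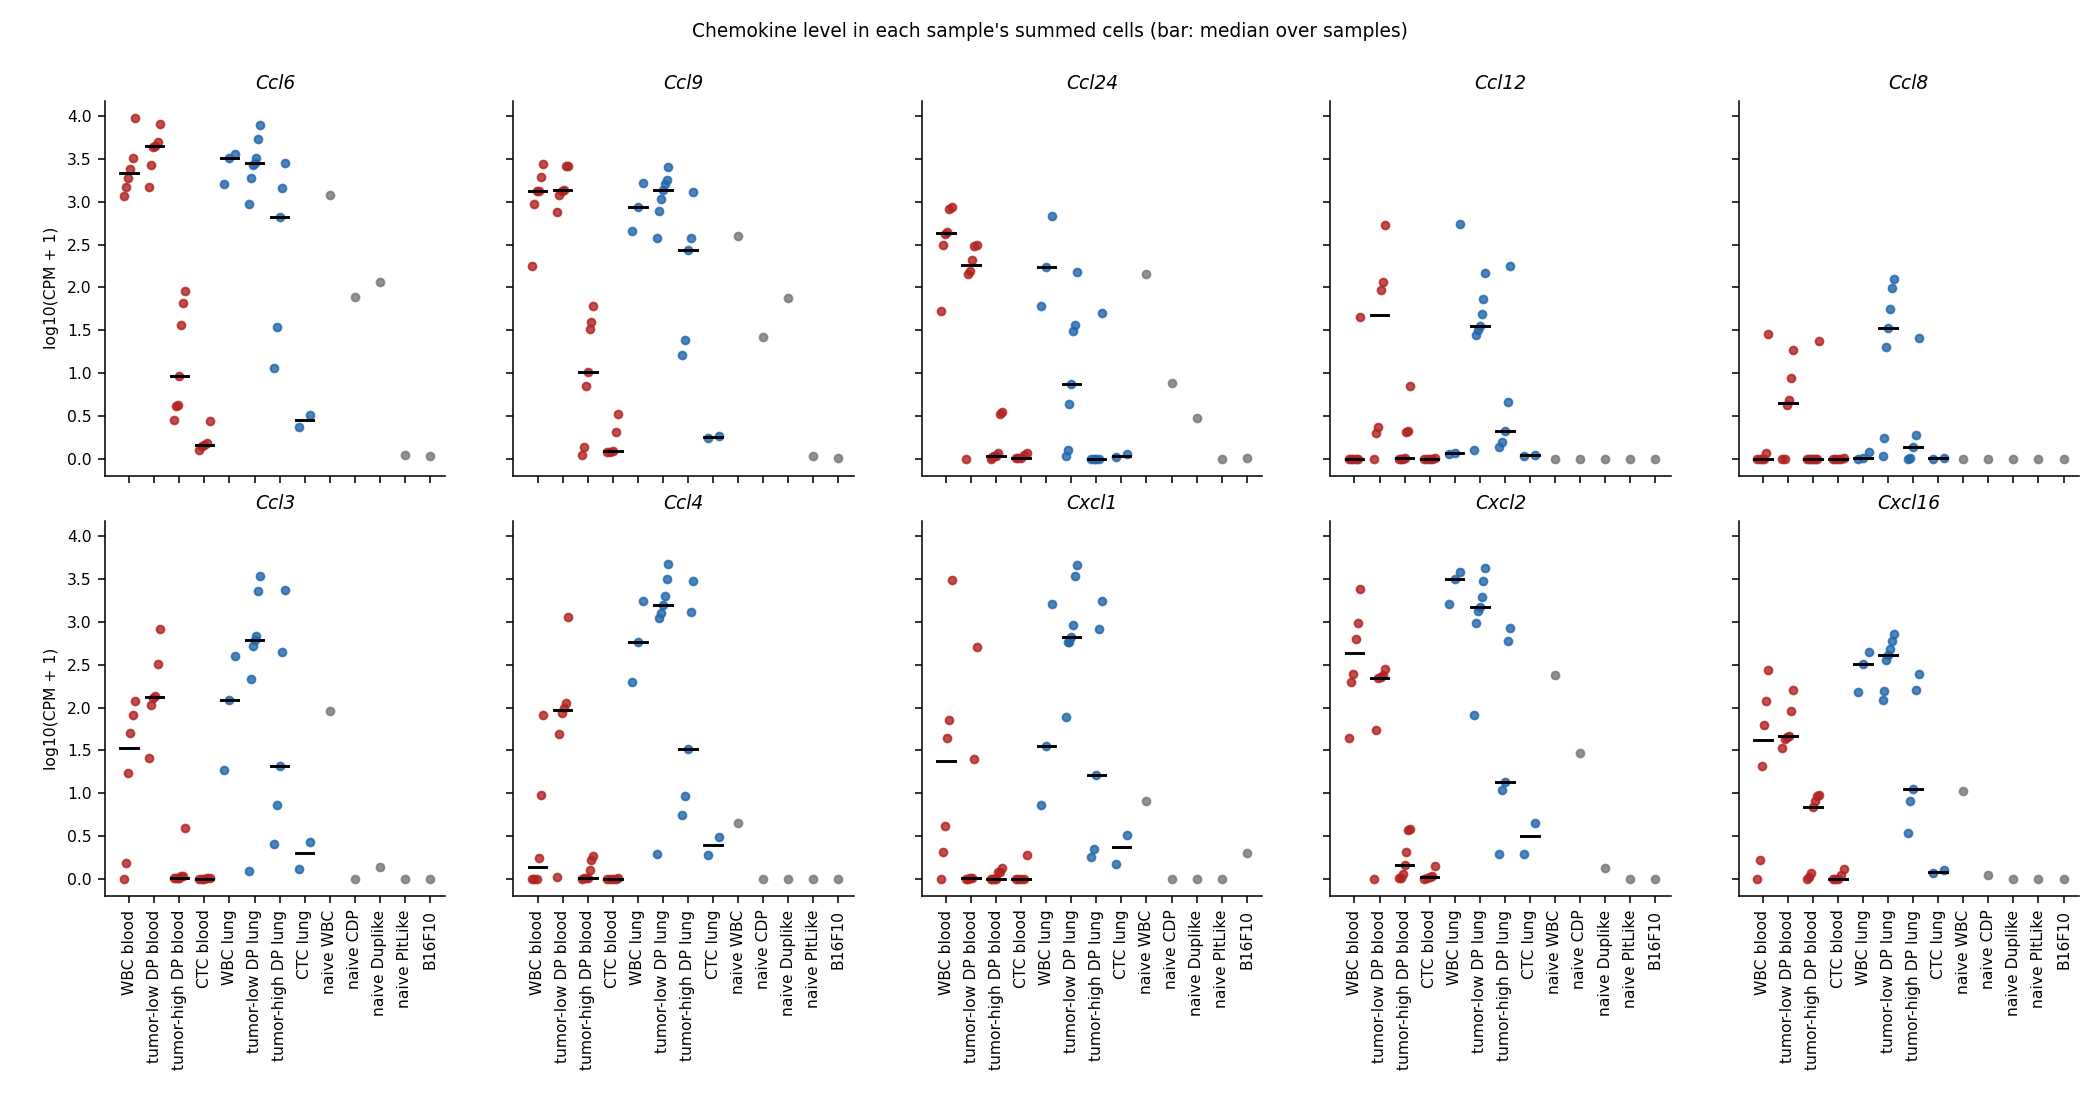
Each panel is 1 chemokine and each point 1 sample's summed cells, as log10(CPM + 1), for blood classes (red), lung classes (blue) and single control samples (grey); black bars are medians. Tumor-low DP and WBC lie in a similar range for Ccl6 and Ccl9, tumor-high DP of blood and CTC have low medians for every member, and Cxcl1 of tumor-low DP is near 0 in 4 of 6 blood samples and at 76.7 CPM or more in lung.

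Per kilobase of exon, which allows genes to be compared, the order of mean levels differed between the tissues. In blood tumor-low DP, Ccl6 led with 2431 CPM per kb, followed by Ccl9 at 544, Ccl4 at 377, Ccl3 at 333, Ccl12 at 231, Ccl24 at 145, Cxcl2 at 81.9, Cxcl1 at 46.8, Cxcl16 at 22.9 and Ccl8 at 10.6. In lung tumor-low DP, Ccl4 led with 3015 CPM per kb, followed by Ccl6 at 1993, Ccl3 at 1441, Cxcl2 at 904, Cxcl1 at 827, Ccl9 at 448, Cxcl16 at 134, Ccl12 at 96.0, Ccl8 at 91.8 and Ccl24 at 25.1. Single samples carried several of these means. Without replicate 3 those of blood were 104 CPM per kb for Ccl4, 187 for Ccl3 and 78.7 for Ccl12, without replicate 9 that of Cxcl1 was 2.54, and without replicate 6 that of Ccl8 was 5.82. In lung Ccl24 stood at 9.79 CPM per kb without replicate 8 and Ccl3 at 943 without replicate 2. With SDs often as large as the means, most neighbours in these orders did not differ beyond their spread over samples.

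**Figure D3:**
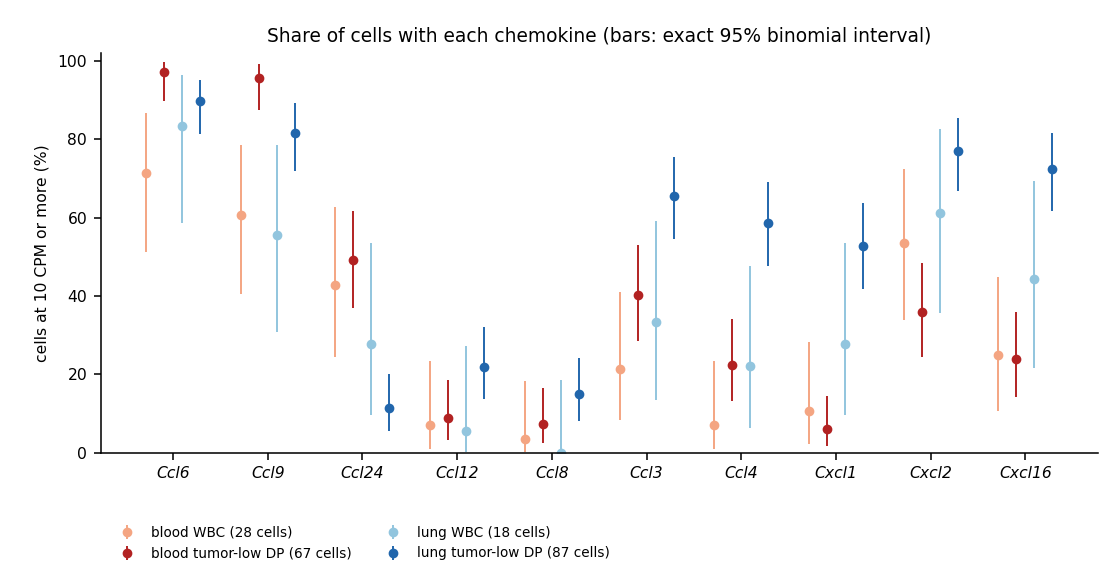
Points give the percentage of cells in which each chemokine reached 10 CPM in blood WBC (28 cells), blood tumor-low DP (67), lung WBC (18) and lung tumor-low DP (87), with exact 95% binomial intervals that cover counting error only. Cells are pooled over samples that gave unequal numbers and are not replicates. The lung tumor-low DP share of Cxcl1 (52.9%) lies above the blood one (5.97%), and for Ccl24 it lies below (11.5% against 49.3%).

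Tumor cells carried little of any member. In CTC of blood the highest mean was 0.808 ± 0.930 CPM (Ccl9, n = 5), and in the 2 lung CTC sums it was 2.21 CPM (Cxcl2, from 3.46 and 0.958 CPM). No member but Ccl9, in 1 of 28 cells, reached 10 CPM in a CTC of blood, where the exact 95% interval of 0 of 28 reaches 12.3%. In lung 0 of 15 CTC reached it for any member, with an interval up to 21.8%. Cultured B16F10 cells had Cxcl1 at 1.00 CPM, from 1 of 22 cells, and every other member below 0.1 CPM. Among the naive CDP, Duplike and PltLike controls, CDP cells held Ccl6 in 15 of 18 cells at a sum of 76.4 CPM and Cxcl2 in 9 of 18 at 28.6 CPM. Duplike cells held Ccl6 in 7 of 24 at 115 CPM and Ccl9 in 5 of 24 at 74.2 CPM, and PltLike cells held none, with Ccl6 at 0.112 CPM. Each control is 1 sample, so these values have no replicate check. The naive WBC cells held Ccl24 at 144 CPM, Ccl3 at 89.7 CPM, Cxcl2 at 240 CPM and Cxcl16 at 9.70 CPM.

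The sorted classes were first compared as they stand, over all their cells. Tests used edgeR's quasi-likelihood F-test on sums of raw counts with the sample as a block, and adjusted p-values (Benjamini-Hochberg) cover all genes tested, with a threshold of 0.05. In such sums, fewer cells of a type and less RNA per cell cannot be told apart. A fitted log2 difference of a gene with sums near 0 depends on the model's prior and is no bound on the fold.

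In blood, 5 of the 10 members were lower in DP than in WBC, where 11.4% of all genes tested passed, 9.17% higher and 2.19% lower. They were Ccl6 (log2 difference -4.17 ± 0.89 SE, adjusted p = 0.00572), Ccl9 (-4.80 ± 1.04, 0.00608), Ccl24 (-6.83 ± 1.94, 0.0263), Cxcl1 (-11.02 ± 2.24, 0.00418) and Cxcl2 (-7.34 ± 1.92, 0.0181). Ccl6 ran from 65.8 through 177 to 3006 CPM in 7 DP sums, and it was lower than WBC in all 5 samples that held both. Ccl9, Ccl24 and Cxcl2 were likewise lower in 5 of 5 and Cxcl1 in 4 of 5. The ranges of DP and WBC overlapped for all 5 genes. Ccl12 and Ccl8 had fitted differences of the other sign (6.66 ± 3.08 and 5.27 ± 2.51, adjusted p = 0.162 and 0.178), although their mean levels were 5.29 CPM in DP against 7.32 CPM in WBC and 3.39 against 4.64 CPM. The members' median difference was -3.98, beside 1.36 over all genes. All 7 pan-leukocyte and 6 of 8 macrophage markers were lower as well, and 8 of 8 melanocyte markers were higher. No member passed with sums of at least 5 cells, where 0 genes passed at all. Leaving out 1 sample gave 3 to 5 members, with 3 without replicates 1, 2 or 5: Ccl24 lost its call without replicates 1, 2, 5 or 6 and Cxcl2 without replicates 1, 2, 3 or 5. Ccl24 also lost it with equal weights for cells (-5.13, adjusted p = 0.0807) and Cxcl1 without the sample block (-5.17, adjusted p = 0.111).

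In lung, 0 of 10 members passed between DP and WBC by edgeR, where 0.78% of all genes did, 0.685% higher and 0.0949% lower. An unadjusted p under 0.05 was found for 2 members, beside 2829 of 14750 genes. DESeq2 called 2 members, beside 4256 genes. The sums of Ccl24 did not overlap (DP at most 43.6 CPM, WBC at least 59.8 CPM; -6.32 ± 2.05, adjusted p = 0.105), nor did those of Ccl8 (DP at least 0.527 CPM, WBC at most 0.189 CPM; 8.51 ± 3.11, 0.139). The share of all genes whose sums did not overlap between lung DP and WBC was not determined. Whether the DP minus WBC difference itself differed between lung and blood was tested after these results were seen. By edgeR 0 members and 0 of 14750 genes passed, and 5 members had an unadjusted p under 0.05, beside 1783 genes. DESeq2 called 4 members, beside 2790 genes.

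CTC of blood were lower than blood WBC for 8 of 10 members, all but Ccl12 and Ccl8, where 15.7% of all genes passed, 8.44% higher and 7.25% lower. The sums did not overlap for Ccl6, Ccl9, Ccl24 and Cxcl2. Ccl6 was 0.272 to 1.73 CPM in 5 CTC sums against 1157 CPM or more in WBC (-12.53 ± 1.15, adjusted p = 1.34e-07). Ccl4 lost its call without replicate 1 or without replicate 2. DP of blood in turn were higher than CTC of blood for 8 of 10 members, all but Ccl24 and Cxcl1, where 1.95% of genes passed, all higher. Ccl6 (8.35 ± 1.00, 4.08e-05) and Ccl9 (6.88 ± 1.09, 0.000462) had the smallest adjusted p-values, and with Cxcl16 they did not overlap with CTC. Leaving out 1 sample gave 2 to 9 members there, with 2 without replicate 2 or 6, 4 without replicate 3 and 5 without replicate 5. Ccl12 and Ccl8 also lost their call there without the sample block. Both comparisons use the same CTC sums. The share of all genes whose sums did not overlap was not determined for either.

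DP cells of lung had higher levels than DP cells of blood for 3 members, Cxcl1, Cxcl2 and Ccl6, where 0.678% of all genes passed, 0.617% higher and 0.061% lower. Cxcl1 ran from 0 through 0.0158 to 132 CPM in 7 blood sums and from 2.82 through 651 to 4436 CPM in 7 lung sums (17.88 ± 2.57, adjusted p = 0.00103). It was higher in lung in 5 of 5 samples with both tissues. Cxcl2 ran from 0.0130 through 9.07 to 106 CPM in blood and from 64.8 through 1050 to 4040 CPM in lung (8.81 ± 2.03, 0.0409). Ccl6 ran from 65.8 through 177 to 3006 CPM in blood and from 179 through 1486 to 7904 CPM in lung (3.62 ± 0.87, 0.0494), and both were higher in lung in 4 of 5 samples, with replicate 7 the other way. In that sample the tumor-high share was 23.9% in blood and 74.5% in lung. The fitted difference was positive for all 10 members, with a median of 6.43 beside -0.35 over all genes. It had an unadjusted p under 0.05 for 9 members, all but Ccl24, beside 1656 of 14750 genes. The mean of Ccl24 was nevertheless lower in lung DP (12.4 CPM) than in blood DP (33.4 CPM), and its fitted sign changed under some settings.

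The calls for Ccl6 and Cxcl2 held in fewer of the other fits than that for Cxcl1. Ccl6 passed in none of the fits that left out 1 of replicates 1 to 6, 8 or 9, and Cxcl2 in none that left out 1 of replicates 1 to 6, whereas Cxcl1 passed in each and lost its call only without the sample block (6.89, adjusted p = 0.122). Ccl6 also lost its call with DESeq2 size factors, TMMwsp scaling, equal weights for cells, sums of at least 5 cells or no sample block. Cxcl2 lost its call with DESeq2 size factors, equal weights for cells or sums of at least 5 cells. Without replicate 7, 6 members passed. Other measures differed between the tissues as well: 4 of 7 pan-leukocyte, 2 of 8 macrophage and 3 of 10 alveolar macrophage markers were higher in lung DP and 2 of 6 B cell markers lower. Of 6 fibroblast markers 1 was higher and all 6 had a positive difference (median 5.64), and their summed level ran from 0.0284 through 1.33 to 1512 CPM in blood DP and from 1.08 through 324 to 9374 CPM in lung DP. The summed pan-leukocyte level ran from 137 to 2932 CPM in blood DP and from 318 to 8672 CPM in lung DP. The tumor-low share of DP cells, given above, differed too, and the part of each in these differences was not tested.

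**Figure D4:**
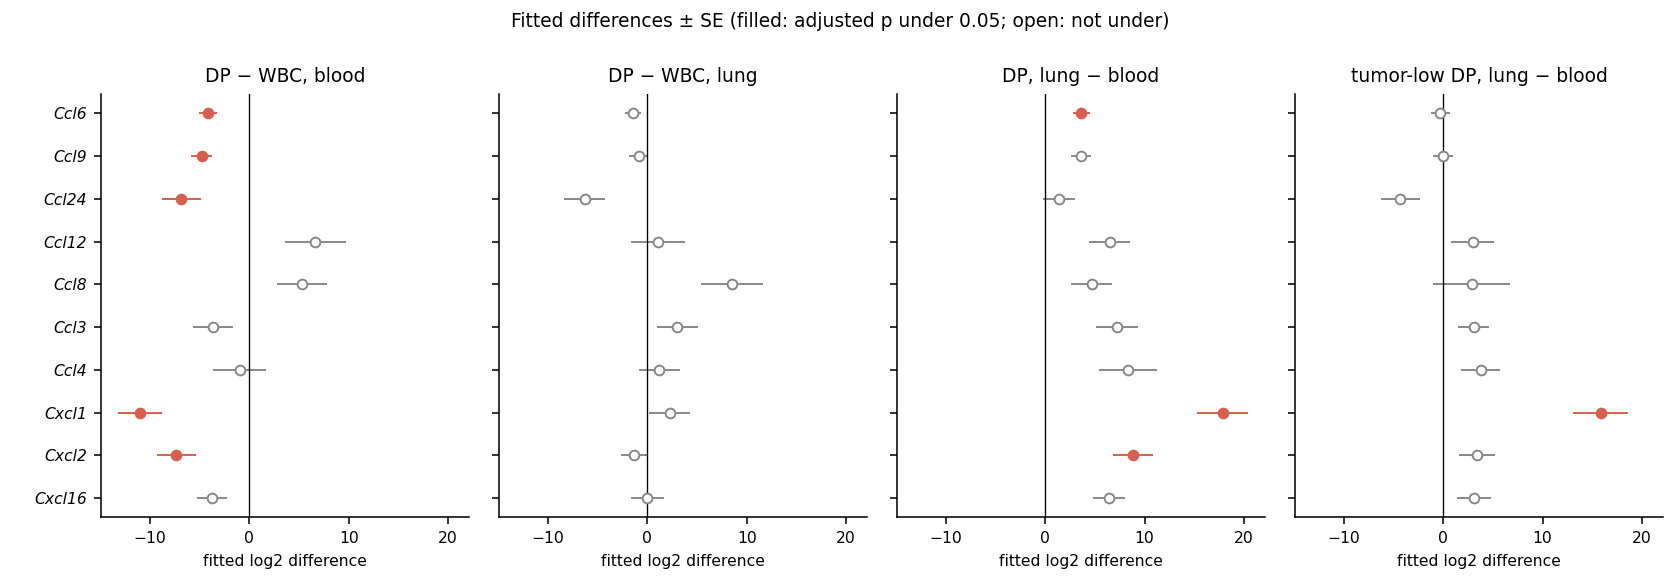
Fitted log2 differences with SE bars for each chemokine in 4 comparisons; filled points have an adjusted p under 0.05 over all genes. In blood 5 members are lower in DP than in WBC, in lung none passes, and Cxcl1 is higher in lung than in blood both over all DP cells and in tumor-low DP cells.

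DP cells were then restricted to tumor-low cells. Against WBC, 0 of 10 members passed by edgeR in blood, where 0.0203% of all genes did. There 4 members had an unadjusted p under 0.05, beside 1244 of 14792 genes, and DESeq2 called 3, beside 2070 genes. In lung 0 of 10 passed, where 0.0203% of all genes did, 0.00676% higher and 0.0135% lower. There 3 members had an unadjusted p under 0.05, beside 2384 of 14792 genes, and DESeq2 called 3, beside 3570 genes. The intervals are wide: the Ccl6 difference was 0.66 ± 0.97 in blood and -0.24 ± 1.08 in lung, so these tests do not show that the classes are alike. The difference between the 2 tissues in this contrast, also tested after the results were seen, passed for 0 members and 0 of 14792 genes by edgeR. It had an unadjusted p under 0.05 for 1 member, beside 1749 genes, and DESeq2 called 3 members, beside 2765 genes. Leaving out cells with alveolar or serous-cavity macrophage markers, an alternative chosen after seeing the data, let Ccl3 pass in blood (20.52, adjusted p = 0.00491).

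Between tumor-low DP cells of lung and of blood, Cxcl1 was the 1 member that passed (15.85 ± 2.76, adjusted p = 0.0108; higher in lung in 4 of 4 samples with both), where 0.142% of all genes passed, 0.0406% higher and 0.101% lower. Ccl24 had an unadjusted p of 0.0346 in the other direction (-4.33 ± 1.97, adjusted p = 0.435). Ccl3 (3.07 ± 1.56), Ccl4 (3.77 ± 1.98), Cxcl2 (3.36 ± 1.80) and Cxcl16 (3.10 ± 1.75) had positive differences that did not pass, with adjusted p of 0.507 or more. Ccl12 (2.97 ± 2.17) and Ccl8 (2.85 ± 3.91) did not pass either (adjusted p = 0.695 and 0.885). The mean of Ccl12 was lower in lung (51.5 CPM) than in blood (124 CPM), against the sign of its fitted difference. Ccl6 (-0.28 ± 0.91) and Ccl9 (-0.0051 ± 1.00) were near 0. Cxcl1 did not pass without replicate 1 (adjusted p up to 0.264 over all alternatives run), nor with sums of at least 5 cells or without the sample block. It passed when cells with alveolar or serous-cavity macrophage markers were left out (15.85, adjusted p = 0.0005).

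Tumor-low DP cells of blood and lung held markers of different macrophages, described here without a test. Alveolar macrophage markers (at least 50% of 10 genes, among them Chil3, Ear1 and Marco) were present in 43 of 87 lung and 1 of 67 blood tumor-low DP cells. Serous-cavity macrophage markers (8 genes, among them Gata6, Icam2 and Prg4) were present in 2 and 29, B cell markers in 0 and 15, and fibroblast markers in 11 and 1. Among all tumor-low cells with alveolar markers in lung, DP and WBC together (45 cells of 6 samples), Ccl6 was in 45, Cxcl2 in 37, Ccl9 in 35, Cxcl1 in 22 and Ccl24 in 2. Among those with serous-cavity markers in blood (44 cells of 8 samples), Ccl6 was in 44, Ccl9 in 42, Ccl24 in 30, Cxcl2 in 27 and Cxcl1 in 5. The cells were assigned without any member. Cells with fibroblast markers (14 cells of 4 samples) held Cxcl1 in 11 and Cxcl16 in 10, and the 12 cells with B cell and without macrophage markers held Ccl6 in 5 and every other member in 3 or fewer. The 9 cells with neutrophil markers, from 2 samples and none of them DP, held Ccl6 in 9 and Cxcl2 in 7.

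Tumor-low DP cells with macrophage markers (C1qa, C1qb, C1qc, Csf1r, Adgre1, Cd68, Mertk and Fcgr1) but neither alveolar nor serous-cavity ones were set side by side, 30 in blood and 35 in lung. With WBC that met the same terms they made 71 cells, of which 9 also held B cell, 8 monocyte and 2 fibroblast markers. Whether they are of the same type in both tissues was not tested. The DP subset was chosen after values had been seen and is described without a test. Over 6 samples in each tissue with at least 2 such cells, Cxcl1 ran from 0 through 0.0269 to 36.5 CPM in blood and from 81.1 through 1158 to 9332 CPM in lung. Cxcl2 ran from 0 through 52.4 to 482 CPM and from 1345 through 2552 to 5070 CPM, and Ccl4 from 0.0669 through 356 to 1149 CPM and from 2001 through 2871 to 12350 CPM. These 3 members did not overlap between the tissues, beside 0.223% of 14792 genes that lay wholly higher in lung and 0.162% wholly lower. All 3 were higher in lung in each of the 3 samples that held such cells of both tissues.

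The remaining members overlapped in these macrophage-marker cells. The means of Ccl6 were 5522 ± 3192 CPM (blood) and 3979 ± 1447 CPM (lung), and those of Ccl9 2075 ± 1279 and 2182 ± 569.6 CPM. Ccl3 ran up to 1759 CPM in blood and 6120 CPM in lung, and Cxcl16 up to 252 and 982 CPM, both higher in lung in 3 of 3 samples with both. Ccl24 had medians of 320 and 31.5 CPM but ranges from 0 to 1230 and from 0.156 to 160 CPM.

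**Figure D5:**
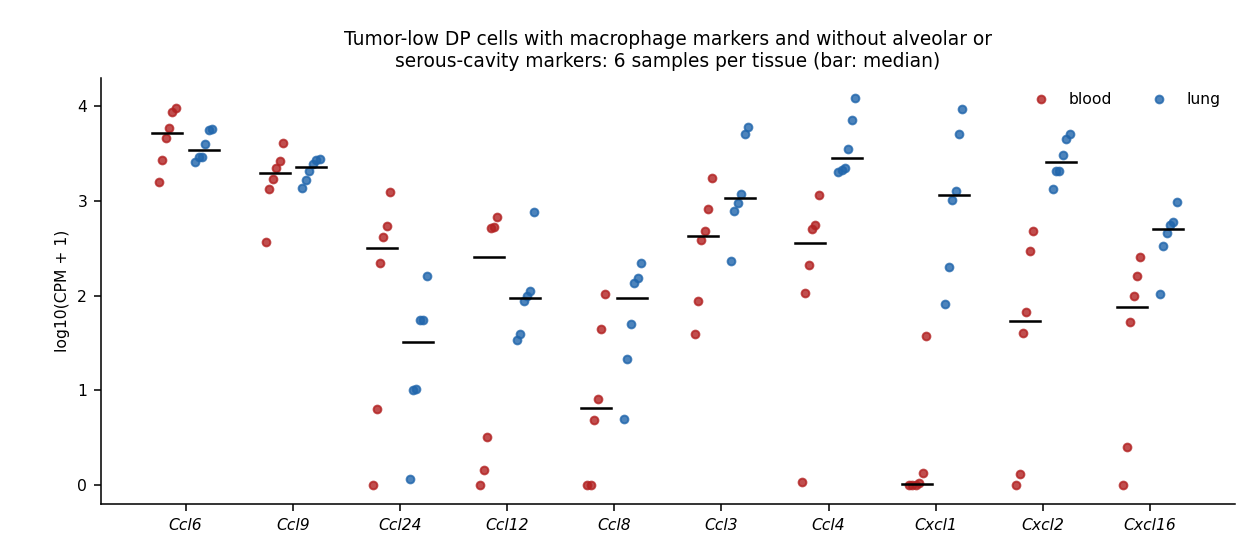
Points are samples (6 per tissue; bars are medians) and show log10(CPM + 1) in tumor-low DP cells with macrophage markers and without alveolar or serous-cavity markers, blood in red and lung in blue. Cxcl1, Cxcl2 and Ccl4 do not overlap between the tissues, whereas Ccl6 and Ccl9 lie together.

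Some receptors for these ligands were present in tumor-low DP sums and others were near 0. Whether receptor and ligand shared single cells was not examined. Ccr1, the receptor of Ccl6, Ccl9 and Ccl3, stood at 430.5 ± 279 CPM in blood and 159 ± 46.1 CPM in lung tumor-low DP sums. Ccr2 stood at 315 ± 221 CPM in blood and 9.96 ± 15.2 CPM in lung. Cxcr2, the receptor of Cxcl1 and Cxcl2, was at most 0.158 CPM in blood and 3.46 CPM in lung tumor-low DP sums, against a mean of 212 CPM in blood WBC and 625 CPM in naive WBC. Cxcr1 averaged 26.0 CPM and Cxcr6 4.92 CPM in lung tumor-low DP, where Ccr3 was at most 10.5 CPM, while in blood Cxcr6 and Ccr3 were at 0 and Cxcr1 at most 0.00607 CPM. Ccr8 was at most 0.234 CPM in blood and Ackr1 at most 0.00954 CPM in lung, and Ackr2 averaged 15.8 CPM in blood and 0.0048 CPM in lung. Among the receptors reported here, Ccr1 was lower in blood DP than in WBC (-4.57 ± 1.09, adjusted p = 0.011), lower in CTC than in WBC and higher in DP than in CTC of blood, and 0 passed between lung and blood. Adam10 and Adam17 were tested in every comparison and neither passed.

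Some targets of NF-kB, as well as the members Cxcl1, Cxcl2 and Ccl6, were higher in lung than in blood over all DP cells. Between lung and blood DP, 4 of 16 genes of the NF-kB response passed, all higher in lung: Nfkbia, the inhibitor that NF-kB itself induces (4.70 ± 0.81, adjusted p = 0.00697), the cytokines Tnf (9.44 ± 2.12, 0.0382) and Il1a (13.30 ± 3.19, 0.0477), and the adhesion molecule Icam1 (5.86 ± 1.40, 0.0477). Of 20 other chemokines tested, 1 was higher, Ccl7 (9.44 ± 1.90, 0.0217). Between blood DP and WBC, 4 of the 16 were lower (Nfkbia, Nfkbiz, Icam1 and Il1a), Pf4 of the other chemokines was lower (-5.69 ± 1.18, 0.00467) and Ppbp higher (11.43 ± 3.64, 0.0474). Between CTC and WBC of blood, 12 of the 16 and 5 of the 20 were lower, and between DP and CTC of blood 5 and 3 were higher. In the 3 comparisons of tumor-low DP cells 0 genes of any of these lists passed. In the lung against blood one, 7 of 16 NF-kB genes had an unadjusted p under 0.05, beside 1514 of 14792 genes, and 15 of 16 were positive. A list of 15 immediate-early and heat-shock genes, RNAs that rise in minutes when tissue is handled, was added after the data were seen. It had 3 higher in lung than in blood DP (Junb, Hspa1a and Zfp36), 8 lower in blood DP than in WBC and 11 lower in CTC than in WBC. Their part in the differences of the members was not tested.

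The members did not all vary together. Over the 22 sums of tumor-low DP and WBC, which share samples and depth, Pearson's r of log2(CPM + 1) between members was highest for Ccl3 and Ccl4 (0.69) and lowest for Ccl24 and Cxcl16 (-0.40). Among 6622 genes with a mean of at least 20 CPM, the most similar in pattern to Cxcl2 were Nfkbia (0.80) and Zfp36 (0.75), and to Cxcl1 Ccrl2 (0.80) and Olfml3 (0.74). Por (0.85) and Igf1 (0.78) were closest to Ccl3, Fabp5 (0.85) and Bcl2a1b (0.83) to Ccl4, and Cd63 (0.83) and Fth1 (0.75) to Cxcl16. Cdc42ep4 (0.80) and Apbb1ip (0.73) were closest to Ccl6, C5ar1 (0.79) and Fcgr3 (0.75) to Ccl9, and Itgam (0.77) and Wfdc17 (0.75) to Ccl24. Gas6 (0.82) and Ms4a4a (0.81) were closest to Ccl12, and Psap (0.80) and Sulf2 (0.77) to Ccl8. These are descriptions over shared samples.

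Single cells held several members at once. The median number of members at 10 CPM or more was 4 in tumor-low DP cells of blood and 6 in those of lung, 3.5 in WBC of either tissue and 2 in naive WBC. At least 5 members were present in 24 of 67 blood cells (35.8%) and 57 of 87 lung cells (65.5%) of the tumor-low DP class. Ccl6 and Ccl9 shared 64 of the 65 and 64 blood cells that held them, and 67 of the 78 and 71 lung cells. All 10 lung cells with Ccl24 held Ccl3 and Ccl6, while of the 33 blood cells with Ccl24 13 held Ccl3.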

How the data were processed

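Raw read counts per gene and cell were deposited by the authors. Per the submitters' processing notes, tools included Trim Galore, HISAT2, SAMtools and featureCounts with build mm10, all named without versions. Counts have no molecular tags, so intervals and floors cover counting error only. Values of 2 outnumber values of 1 by 3.59 times.

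The cells of a sample, tissue and class were added up where there were 2 or more. These sums were tested with edgeR 4.0.16 (TMM, filterByExpr, quasi-likelihood F-test; limma 3.58.1, R 4.3.3) in 2 fits, 1 of the sorted classes (30 sums, 14750 genes) and 1 with DP divided (41 sums, 14792 genes), with the sample as block. Cells of 1 sample share that sample per the labels. Same-sample sums had a median r of 0.0366 (51 pairs) and different samples -0.00252 (313 pairs). DESeq2 1.42.0 was an alternative. Figures and levels used Python 3.11.15. Only the edgeR fits were run on simulated sums with known changes, for 1 comparison per fit and without sample effects. The outcome is not given here.

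The 10 members, lists and divide were chosen with earlier results of these data known. Named genes are all members, the receptors (1 is not reported here), up to 4 genes per list and comparison by smallest p, and the 2 genes most like each member. The interactions, the immediate-early list, the macrophage-marker subset and the alternative without alveolar or serous-cavity cells were added after the data were seen. DNA libraries were not analysed here.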

Additional observations from a re-analysis of the deposited data

Results flagged for a closer look

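Of 80 sets of sums of 1 member in 1 group, 28 held a sample far above the nearest other. Chance gives about 1 in 20 for normally distributed values, and these CPM values are skewed with many at 0, for which the rate was not determined. No set held a sample far below the others. Where all other samples were at 0, any count above 0 was flagged by construction. In CTC of blood this held for Ccl12, Ccl8, Ccl4 and Cxcl1, with 2, 1, 4 and 46 counts over all cells. 8 of the 28 were in tumor-high DP cells, and no cause was tested. In CTC of blood the highest sample stood apart for Ccl6 1.73 CPM in replicate 1 (nearest 0.532), Ccl12 0.0194 CPM in replicate 6 (nearest 0), Ccl8 0.00973 CPM in replicate 6 (nearest 0), Ccl4 0.0213 CPM in replicate 3 (nearest 0), Cxcl1 0.904 CPM in replicate 1 (nearest 0) and Cxcl2 0.432 CPM in replicate 1 (nearest 0.0701). In DP of blood the highest sample stood apart for Ccl9 976 CPM in replicate 7 (nearest 398), Ccl8 21.5 CPM in replicate 2 (nearest 1.19) and Cxcl1 132 CPM in replicate 9 (nearest 1.11). In DP of lung the highest sample stood apart for Ccl6 7904 CPM in replicate 4 (nearest 2746) and Ccl8 203 CPM in replicate 4 (nearest 56.3).

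In WBC of blood the highest sample stood apart for Ccl6 9541 CPM in replicate 4 (nearest 3231), Ccl12 43.9 CPM in replicate 6 (nearest 0), Ccl8 27.7 CPM in replicate 6 (nearest 0.157), Ccl4 80.3 CPM in replicate 2 (nearest 8.57) and Cxcl1 3091 CPM in replicate 1 (nearest 69.7). In tumor-high DP of blood the highest sample stood apart for Ccl12 6.16 CPM in replicate 6 (nearest 1.09), Ccl8 22.9 CPM in replicate 2 (nearest 0.00388) and Ccl3 2.91 CPM in replicate 2 (nearest 0.0816). In tumor-high DP of lung the highest sample stood apart for Ccl9 1299 CPM in replicate 3 (nearest 376), Ccl24 49.8 CPM in replicate 5 (nearest 0.00841), Ccl12 176 CPM in replicate 5 (nearest 3.61), Ccl8 24.8 CPM in replicate 5 (nearest 0.888) and Ccl3 2363 CPM in replicate 3 (nearest 446). In tumor-low DP of blood the highest sample stood apart for Ccl12 532 CPM in replicate 3 (nearest 116), Ccl4 1149 CPM in replicate 3 (nearest 112) and Cxcl1 503 CPM in replicate 9 (nearest 23.8). In tumor-low DP of lung the highest sample stood apart for Ccl24 152 CPM in replicate 8 (nearest 35.7).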

How the results depend on the processing

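The 80 log2 differences (10 members in 8 comparisons) were refitted under other settings, 9 for each of the 5 comparisons of whole classes and 12 for each of the 3 of tumor-low DP cells, and with each of 9 samples left out. Of 810 values under other settings, 694 kept their direction and side of the threshold, 29 lost a call, 44 gained one and 43 changed sign, and of 720 values with 1 sample left out these numbers were 648, 46, 5 and 21. Of the values that changed sign, Ccl4 in CTC against WBC of blood was the 1 with a call in the fit as reported.

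The number of members called depended on the tool. DESeq2 called 9 in DP against WBC of blood, 2 in DP against WBC of lung, 9 in lung against blood DP (Ccl8 with an adjusted p of 0.0499), 3 in tumor-low DP against WBC of blood, 3 in that of lung and 2 in lung against blood tumor-low DP, and 4 and 3 in the lung minus blood differences of both contrasts. Over all genes DESeq2 called 5290 where edgeR called 1675 in DP against WBC of blood, 4256 against 115 in that of lung, 2312 against 100 in lung against blood DP, 5661 against 2315 in CTC against WBC of blood, 1773 against 288 in DP against CTC of blood, 2070 against 3 and 3570 against 3 in tumor-low DP against WBC of blood and lung, 1937 against 21 in lung against blood tumor-low DP, and 2790 and 2765 against 0 in the lung minus blood differences. With sums of at least 5 cells the counts were 0, 1, 5, 1 and 0 in DP against WBC of blood, lung against blood DP, CTC against WBC of blood, DP against CTC of blood and lung against blood tumor-low DP. Without the filter they were 1 in DP against WBC of lung, 7 in lung against blood DP and 1 in the lung minus blood difference of DP minus WBC. In lung against blood DP they were 1 with DESeq2 size factors, 1 with equal weights for cells and 6 without replicates 7 to 9. Without cells of alveolar or serous-cavity macrophage markers 1 member, Ccl3, passed in tumor-low DP against WBC of blood. Leaving out 1 sample gave 3 to 5 members in DP against WBC of blood, 1 to 6 in lung against blood DP, 2 to 9 in DP against CTC of blood and 0 to 1 in lung against blood tumor-low DP. The cause was not tested. The number of all genes called is not given here for fits without the filter, with equal weights, or with samples or cells left out. It is also missing for most fits with sums of at least 5 cells. The member counts of those fits, here and above, are therefore a description.

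The sample block pairs classes and tissues of 1 sample. Without the replicate block 1 member passed in DP against WBC of lung and 0 in lung against blood tumor-low DP. Over all genes 1527 were then called in place of 115 in DP against WBC of lung, 382 in place of 100 in lung against blood DP, 497 in place of 288 in DP against CTC of blood, 8 and 431 in place of 3 in tumor-low DP against WBC of blood and lung, 558 in place of 21 in lung against blood tumor-low DP, and 480 and 203 in place of 0 in the lung minus blood differences.

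Signs changed as follows, each as the log2 difference. With sums of at least 5 cells the values were Ccl4 16.26 in DP against WBC of blood, Cxcl16 -0.46 in DP against WBC of lung, Ccl24 -0.31 in lung against blood DP, Ccl4 4.65 in CTC against WBC of blood, Ccl6 -0.10 and Ccl8 -0.32 and Cxcl2 1.54 and Cxcl16 -0.013 in tumor-low DP against WBC of blood, Ccl6 1.06 in tumor-low DP against WBC of lung, Ccl9 0.63 in lung against blood tumor-low DP. Without the sample block the values were Ccl12 -1.16 and Ccl8 -1.16 in DP against WBC of blood, Ccl12 -2.27 and Cxcl16 -0.49 in DP against WBC of lung, Ccl24 -0.87 in lung against blood DP, Ccl9 0.016 and Ccl8 -0.19 and Cxcl16 -0.48 in tumor-low DP against WBC of blood, Ccl12 -2.41 in tumor-low DP against WBC of lung, Ccl9 0.080 and Ccl12 -0.90 in lung against blood tumor-low DP. With DESeq2 the values were Ccl12 -0.63 and Cxcl16 -0.31 in DP against WBC of lung, Cxcl16 -0.072 in tumor-low DP against WBC of blood. With DESeq2 size factors the values were Cxcl16 -0.31 in DP against WBC of lung, Cxcl16 -0.070 in tumor-low DP against WBC of blood. With sums of at least 1 cell the values were Cxcl16 -0.11 in DP against WBC of lung, Ccl9 0.080 in tumor-low DP against WBC of blood. With equal weights for cells the values were Cxcl16 -0.13 in DP against WBC of lung, Ccl9 0.48 in tumor-low DP against WBC of blood, Ccl6 0.055 in tumor-low DP against WBC of lung. Without the filter on low counts the values were Cxcl16 -0.064 in DP against WBC of lung. Without cells of alveolar or serous-cavity macrophage markers the values were Ccl9 4.21 and Ccl24 8.61 and Cxcl1 2.92 in tumor-low DP against WBC of blood, Ccl6 1.17 and Ccl24 0.85 and Cxcl2 1.16 in tumor-low DP against WBC of lung, Ccl6 0.027 and Ccl9 0.77 in lung against blood tumor-low DP. With TMMwsp scaling the values were Ccl6 0.071 in tumor-low DP against WBC of lung. With the divide at 300 CPM the values were Ccl12 -1.45 in tumor-low DP against WBC of lung. Without replicates 7 to 9 the values were Ccl12 -0.038 in tumor-low DP against WBC of lung. With 1 sample left out the range was Ccl4 -2.37 to 3.53 in DP against WBC of blood, Cxcl16 -0.43 to 0.40, Ccl9 -1.61 to 0.063, Ccl12 -0.59 to 9.56 in DP against WBC of lung, Ccl12 -10.40 to 0.11 in CTC against WBC of blood, Ccl9 -0.59 to 0.17, Cxcl16 -0.69 to 1.65 in tumor-low DP against WBC of blood, Ccl6 -0.63 to 0.40 in tumor-low DP against WBC of lung, Ccl9 -0.28 to 0.32, Ccl6 -0.54 to 0.26 in lung against blood tumor-low DP.

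DESeq2 size factors called 69 genes in DP against WBC of lung, 41 in lung against blood DP and 46 in lung against blood tumor-low DP, beside 115, 100 and 21 with TMM. Scaling moved the median difference of all genes from 1.31 (TMM) to 1.02 (DESeq2 size factors) or 1.42 (TMMwsp) in DP against WBC of lung, and from 0.081 to -0.21 or -0.070 in lung against blood tumor-low DP. In the lung minus blood differences 23 of 390 member values had the other sign. Sums of few cells limit most comparisons, and WBC of lung has 3 samples.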
